A study of Mus musculus with 8 samples.

Results

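The peaks described here were called in only one of the wild-type (WT) libraries of a ChIP-seq study, which used an antibody to pull down chromatin bound by Smad4 in mouse CD4+ T cells. A peak was taken when it met no peak of the other WT list by 1 bp and no peak of either knockout (KO) list, so the peaks were chosen by these calls themselves. WT 1 gave 10412 such peaks of the 27120 in its list, or 38.4% (exact 95% Clopper-Pearson interval 37.8 to 39.0). WT 2 gave 2807 of 19792, or 14.2% (13.7 to 14.7). Together they make 13219 of the 47900 peaks in the 4 lists. They are called single-library peaks below, and peaks that met the other WT list and no KO list (16059 in WT 1 and 16364 in WT 2) are called shared peaks. Another 30 peaks of WT 1 and 2 of WT 2 met no peak of the other WT list but met a KO peak, and were left out by the rule.

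The cells, taken from C57BL/6 spleens and lymph nodes, were activated in IL-6 plus a TGF-β receptor inhibitor and sampled 12 h after treatment. The WT and KO groups had 2 ChIP libraries each, and 4 input samples were not used here. KO mice were CD4cre;Smad4fl/fl: Cre under Cd4 control, which acts from the double-positive thymocyte stage on and so in CD8+ T cells too, cuts floxed Smad4. Both WT samples were labelled female, KO 1 pooled males and females, and KO 2 was male. The labels do not say whether WT 1 and WT 2 came from separate animals or cultures, and all groups received the inhibitor. Read depth is unknown, so fewer reads and less binding cannot be told apart as reasons for a peak missing from a list. Each group of peaks comes from 1 library, so the shares below are descriptions and their intervals cover counting error only.

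Smad4 is the SMAD protein shared by the TGF-β and BMP branches of the pathway. It enters the nucleus with receptor-activated SMADs, where the complex binds short motifs such as the SMAD box, often beside other transcription factors. In T cells the pathway is known for restraining effector programmes and for its part in Th17 and regulatory T cell differentiation. In ChIP-seq, a peak is a stretch where sequenced fragments pile up above background, and a caller keeps those past a threshold, so a site near that threshold can be kept in one library and lost in the other.

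Promoters that lay wholly inside a single-library peak show what such calls look like at gene starts. The 3 genes with the widest such peak in each library are printed, from 250 bases before the start site to 50 after it, 5′ to 3′ on the gene's strand. Sequences are RefSeq's on GRCm38.p6 (mm10). Capitals mark matches on either strand to CAGAC (SMAD box), GGCGC (GC-rich SMAD motif), TGANTCA (AP-1), TGACGTCA (CRE), CCGGAAGT (ETS) and TGTGGT (RUNX). No match to the AP-1, ETS or RUNX letters lay in these 6 windows.
WT 1, Slc1a4, chr11:20332664-20332963, minus strand: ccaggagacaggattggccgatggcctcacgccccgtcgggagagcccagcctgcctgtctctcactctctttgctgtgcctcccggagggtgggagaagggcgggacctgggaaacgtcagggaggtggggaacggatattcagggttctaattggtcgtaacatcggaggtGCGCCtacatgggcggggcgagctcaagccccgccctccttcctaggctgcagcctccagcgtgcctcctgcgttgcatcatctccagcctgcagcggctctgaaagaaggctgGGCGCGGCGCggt
WT 1, Rftn1, chr17:50190448-50190747, minus strand: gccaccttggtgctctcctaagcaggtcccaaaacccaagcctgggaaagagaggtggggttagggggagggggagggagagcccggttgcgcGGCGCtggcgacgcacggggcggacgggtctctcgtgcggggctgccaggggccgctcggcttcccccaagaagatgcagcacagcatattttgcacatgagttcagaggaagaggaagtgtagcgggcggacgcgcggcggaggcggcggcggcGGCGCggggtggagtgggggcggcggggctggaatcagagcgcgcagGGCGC
WT 1, Mxd3, chr13:55329682-55329981, minus strand: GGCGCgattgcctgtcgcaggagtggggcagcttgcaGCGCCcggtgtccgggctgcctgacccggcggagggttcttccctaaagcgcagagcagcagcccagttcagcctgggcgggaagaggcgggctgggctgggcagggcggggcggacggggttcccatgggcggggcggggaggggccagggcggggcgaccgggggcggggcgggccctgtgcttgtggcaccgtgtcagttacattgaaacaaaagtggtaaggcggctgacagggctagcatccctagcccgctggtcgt
WT 2, Sec16a, chr2:26445167-26445466, minus strand: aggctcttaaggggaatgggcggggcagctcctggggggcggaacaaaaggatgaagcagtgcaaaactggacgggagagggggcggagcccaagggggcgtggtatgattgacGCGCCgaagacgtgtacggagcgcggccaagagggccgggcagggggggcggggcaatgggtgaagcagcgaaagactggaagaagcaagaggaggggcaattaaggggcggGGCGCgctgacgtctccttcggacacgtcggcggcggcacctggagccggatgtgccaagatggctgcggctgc
WT 2, Acaa1a, chr9:119341044-119341343, plus strand: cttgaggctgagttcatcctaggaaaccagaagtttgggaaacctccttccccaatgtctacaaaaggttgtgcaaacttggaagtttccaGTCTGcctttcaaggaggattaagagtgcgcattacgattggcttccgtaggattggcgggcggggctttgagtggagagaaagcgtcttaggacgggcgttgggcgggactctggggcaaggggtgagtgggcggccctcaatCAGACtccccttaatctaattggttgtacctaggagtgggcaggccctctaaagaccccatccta
WT 2, Taf11, chr17:27907695-27907994, minus strand: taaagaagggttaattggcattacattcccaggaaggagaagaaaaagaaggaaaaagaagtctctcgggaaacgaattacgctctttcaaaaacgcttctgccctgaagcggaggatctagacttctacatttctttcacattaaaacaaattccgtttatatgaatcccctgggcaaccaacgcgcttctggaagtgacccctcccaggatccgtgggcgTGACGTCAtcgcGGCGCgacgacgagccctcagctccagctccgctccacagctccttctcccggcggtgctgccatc

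The Slc1a4 window, at a gene for a neutral amino acid transporter, held 3 matches to the GC-rich SMAD motif and none to the SMAD box, with 65.0% G or C. Its WT 1 peak was 1572 bp wide, and the nearest WT 2 peak lay 0.427 kb away. The Rftn1 window, at the gene of the lipid raft protein raftlin, also held 3 GC-rich matches, and the nearest WT 2 peak was 23.5 kb away. Mxd3, a repressor of the MYC network, had 2 such matches and a WT 2 peak at 1.33 kb. Among the WT 2 windows, Acaa1a, a peroxisomal thiolase gene, was the one with SMAD box matches, 2 of them, and its nearest WT 1 peak lay 0.117 kb away. Sec16a, which organises endoplasmic reticulum exit sites, had 2 GC-rich matches with a WT 1 peak at 0.281 kb, and Taf11, a TFIID subunit, had 1 GC-rich and 1 CRE match with a WT 1 peak at 0.070 kb.

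Over all windows of coding genes (21238), the SMAD box letters were found in 48.4% and the GC-rich motif in 46.7%. Of the 214 windows inside WT 1 single-library peaks, 41.6% (34.9 to 48.5) held the SMAD box and 73.4% (66.9 to 79.2) the GC-rich motif. Of the 77 inside WT 2 single-library peaks, these shares were 42.9% (31.6 to 54.6) and 74.0% (62.8 to 83.4). The SMAD box was in 48.8% (WT 1) and 48.6% (WT 2) of windows inside shared peaks and in 49.3% of windows with no WT peak. Windows inside shared peaks held the GC-rich motif in 78.9% (WT 1) and 79.5% (WT 2), and windows with no WT peak in 32.5%. GGCGC is a GC-rich word, and the median G or C content was 63.8% in the WT 1 single-library windows, 59.7% in those of WT 2, 65.3% in the WT 1 shared windows and 52.3% in windows with no WT peak. The part of base composition in the motif shares was not tested. The ETS letters were in 15.9% (11.3 to 21.5) of WT 1 and 15.6% (8.32 to 25.6) of WT 2 single-library windows. They were in 12.3% of WT 1 shared windows and 5.15% of all. The AP-1 letters were in 7.01% (3.98 to 11.3) of WT 1 single-library windows and in 1 of 77 of WT 2 (1.30%, 0.0329 to 7.02). Of all windows 6.99% held them, and of shared windows 4.34% in WT 1 and 3.83% in WT 2. The CRE letters were in 5.61% (2.93 to 9.59) of WT 1 and 5.19% (1.43 to 12.8) of WT 2 single-library windows. The RUNX letters were in 11.2% (7.32 to 16.2) and 18.2% (10.3 to 28.6) of them. Over all windows the CRE and RUNX shares were 2.24% and 15.0%, and over WT 1 shared windows 4.46% and 9.96%.

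Single-library peaks were narrow. In WT 1 their median width was 304 bp (quartiles 240 and 388), against 574 bp (426 and 862) for shared peaks. In WT 2 it was 242 bp (242 and 324) against 484 bp (352 and 712). The smallest width in each list, 240 bp in WT 1 and 242 bp in WT 2, appears to be a fixed lower bound, and 39.9% (38.9 to 40.8) of WT 1 and 56.1% (54.2 to 57.9) of WT 2 single-library peaks sat at it. Among shared peaks the shares were 6.24% and 13.7%. A narrow peak has less room to meet another, so width bears directly on the rule and was not tested. Wide ones existed: 610 peaks of WT 1 (5.86%) and 60 of WT 2 (2.14%) were over 600 bp, and 57 and 3 were over 1000 bp. In all they covered 3.61 Mb in WT 1 and 0.852 Mb in WT 2.

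**Figure D1:**
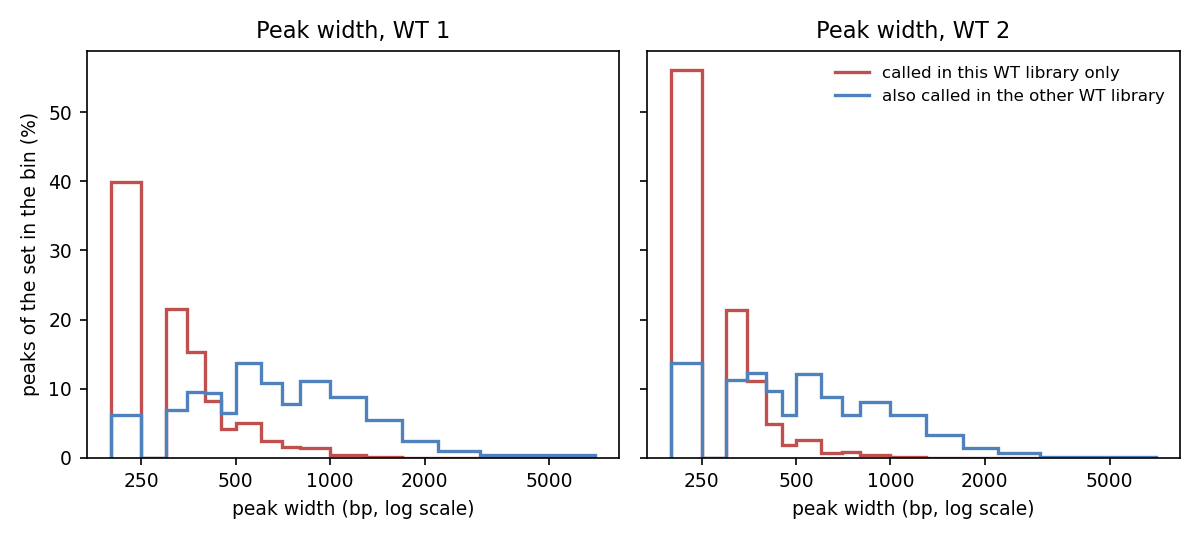
Distribution of peak widths in WT 1 (left) and WT 2 (right), with peak width in bp on a log axis and the percent of the set in each bin on the other; red, peaks called in that library only, blue, peaks also called in the other WT library. The red curves are highest in the first bin, which holds the smallest width (39.9% of WT 1 and 56.1% of WT 2 single-library peaks), and no peak lies between 250 and 300 bp.

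The plot of widths shows both libraries with the same arrangement, a spike at the lower bound and then a fall. The lists are deposited without a height or score and are not sorted by position. Row order followed width closely, with a Spearman correlation across peaks of -0.95 in both lists, a description in which peaks share a library and a caller. Nothing in the sources explains the order. Single-library peaks lay late in it: the median member stood at 75.9% of the list in WT 1 and 83.7% in WT 2, and shared peaks at 33.1% and 44.6%.

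**Figure D2:**
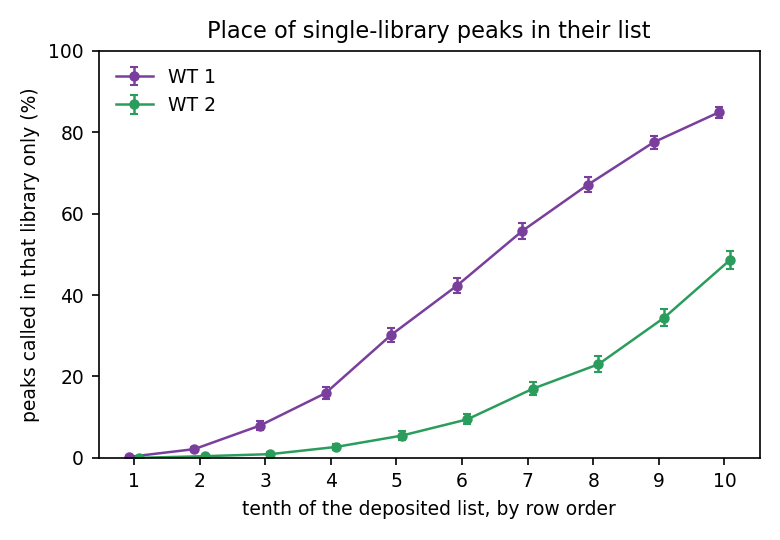
Share of peaks called in that library only (percent, with exact 95% intervals) in each of 10 equal parts of the deposited list by row order, for WT 1 (purple) and WT 2 (green). In WT 1 the share climbs from 0.221% in the first to 84.9% in the last, and in WT 2 from 0% to 48.5%.

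The first of these parts held 6 WT 1 members and none of WT 2, where 0 of 1979 peaks (0%, exact interval up to 0.186%) were called alone, and the fifth held 30.2% and 5.45%. WT 1 rows beyond the length of the WT 2 list have no counterpart in number. With WT 1 shortened to 19792 rows, an alternative chosen after the data were seen, 4690 WT 1 peaks (23.7%) and 4352 WT 2 peaks (22.0%) were called alone. When only the first 13560 rows of WT 1 and the first 9896 of WT 2 were compared, 4489 WT 1 peaks and 805 WT 2 peaks had no partner. Of these, 2960 (65.9%) and 618 (76.8%) met a peak in the later rows of the other list.

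By row order, row 1 of WT 1 was a 2598 bp peak, chr17:39843469-39846066, the widest single-library peak in either list. It lies beside the 18S ribosomal RNA pseudogene Rn18s-rs5, and row 2, 1120 bp, overlaps that pseudogene. Another WT 1 peak there, row 40 (670 bp), met a WT 2 peak of 242 bp at row 3494, and is therefore not a member. How reads from ribosomal repeats were placed is not stated, and their part in these peaks was not tested. Row 123, a 352 bp peak at chr3:5860430-5860781, stood 284 kb from any WT 2 peak and 282 kb from the nearest coding gene, Pex2. The first WT 2 member by order was row 2232, the Sec16a peak.

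Next, the members were placed against RefSeq genes. A peak is said to be at a gene end when its centre is no more than 1 kb from the start or finish of a coding gene. In WT 1, 16.9% (16.1 to 17.6) of single-library peaks were at a gene end, 47.3% elsewhere inside a gene and 35.9% outside genes. For shared WT 1 peaks the shares were 33.6%, 38.4% and 28.0%. In WT 2, 26.1% (24.5 to 27.8) of single-library peaks were at a gene end, 42.6% inside and 31.3% outside, beside 33.6%, 38.3% and 28.0% of shared peaks. The WT 1 shares rest on 1755 single-library and 5394 shared peaks at gene ends, and the WT 2 shares on 733 and 5504. Start sites with strand were taken from coding and other genes and did not cover chromosome 18. Of the members that could be placed (10137 in WT 1 and 2712 in WT 2), 16.7% and 25.7% were centred within 1 kb of one. For shared peaks this share was 33.6% in both libraries.

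**Figure D3:**
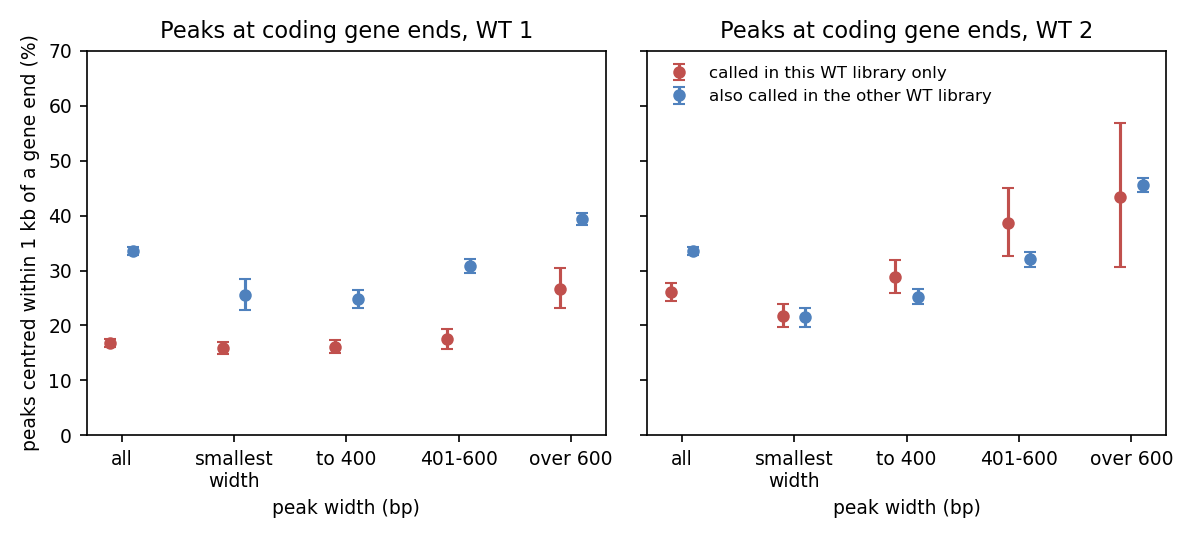
Share of peaks centred within 1 kb of an end of a coding gene (percent, with exact 95% intervals) by peak width in bp, for WT 1 (left) and WT 2 (right); red, peaks called in that library only, blue, peaks also called in the other. In WT 1 the red points lie under the blue at every width, from 15.8% against 25.5% at the smallest width to 26.7% against 39.4% over 600 bp, and in WT 2 they are close at the smallest width, 21.8% and 21.5%.

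The lower WT 1 share was also seen within each width class, with 17.5% against 30.8% for widths over 400 and up to 600 bp. In WT 2 peaks at the smallest width gave 21.8% against 21.5%, and those above it and up to 400 bp 28.9% against 25.2%. For widths over 400 and up to 600 bp the WT 2 shares were 38.7% against 32.0%. Over 600 bp, 26 of 60 WT 2 members were at a gene end, or 43.3% (30.6 to 56.8) against 45.5%. By list position, the 187 WT 2 members in the first 50% of rows were at a gene end in 59.4% (51.9 to 66.5), against 43.0% of shared peaks there. The 1529 WT 1 members in the first 50% of rows were at a gene end in 26.3%, against 38.2%. Outside genes, the median distance to the nearest coding gene was 20.2 kb for WT 1 members and 16.0 kb for those of WT 2, and 20.2 kb for WT 1 shared peaks. For peaks inside genes, the median length of the gene around them was 90.3 kb for WT 1 members, 78.5 kb for WT 2 members and 88.9 kb for WT 1 shared peaks.

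Among chromosomes, X carried 165 WT 1 members (1.58%) and 83 WT 2 members (2.96%, 2.36 to 3.65), beside 241 of 16059 shared peaks in WT 1 and 245 of 16364 in WT 2. Of all X peaks, 40.0% were single-library in WT 1 and 24.8% in WT 2. Autosomes ranged from 34.9% (chromosome 8) to 40.4% (chromosome 6) in WT 1, so X lay within that range. They ranged from 11.6% (chromosome 10) to 17.4% (chromosome 18) in WT 2, and X lay above it.

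Distance to regions called in both WT lists was measured edge to edge. There were 16501 such regions. The median distance was 9.93 kb (quartiles 2.54 and 33.4) for WT 1 members and 10.6 kb (2.18 and 38.4) for WT 2 members. From one such region to the next, the median was 9.86 kb, close to both values. Within 1 kb were 13.1% of WT 1 members (1361), 16.4% of WT 2 members (460) and 13.1% of regions. Within 100 kb were 92.3%, 89.9% and 91.7%.

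**Figure D4:**
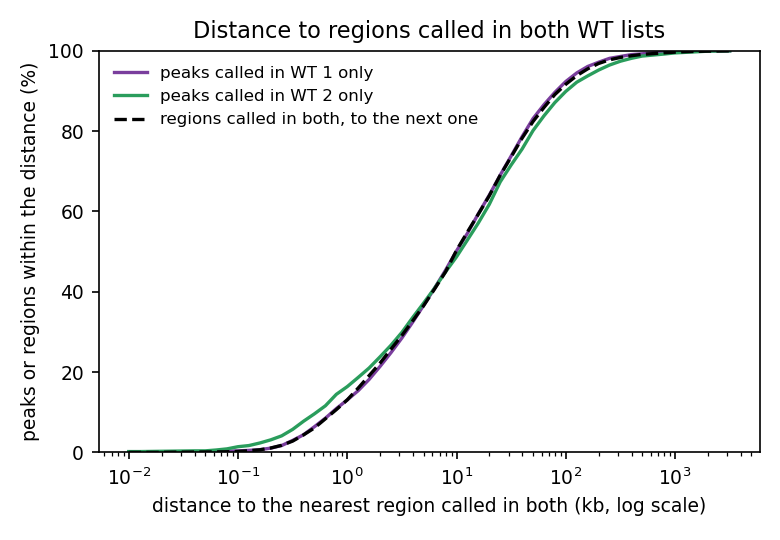
Cumulative share (percent) of peaks called in WT 1 only (purple) and WT 2 only (green) within a distance in kb (log axis) of the nearest region called in both WT lists; the dashed line is from such a region to the next. The 3 curves run close together and reach 50.2%, 48.7% and 50.3% at 10 kb.

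By place, members at gene ends were farthest from these regions, with a median of 19.4 kb in WT 1 and 23.6 kb in WT 2. Members inside genes were nearest, at 8.24 kb and 6.85 kb. Regions next to a member (within 1 kb) had a median width of 740 bp in WT 1, against 655 bp for all regions. To the nearest peak of the other list, whether shared or not, the median was 8.14 kb for WT 1 members and 4.69 kb for WT 2 members. Within 1 kb of it were 15.0% and 26.6%. The lists searched differ in length, 19792 peaks for WT 1 members and 27120 for WT 2 members, and the part of this in the distances was not tested. A member of the other library lay within 1 kb of 354 WT 1 members (3.40%) and 341 WT 2 members (12.1%).

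Some members missed an overlap by a few bases. The gap to the other WT list was at most 10 bp for 12 WT 1 and 15 WT 2 members, and at most 100 bp for 140 and 144. On the other side of the rule, 23 WT 1 and 25 WT 2 peaks overlapped the other list by at most 10 bp, and the median overlap was 434 bp and 432 bp. In the lncRNA genes Gm36486 and Gm36199, 53.1 kb from the STAT3 target Pim1, a WT 1 peak (chr17:29437537-29437776) and a WT 2 peak (chr17:29437161-29437536) touch end to end with no base shared, so both count as single-library. Just outside the rule, in Gng2, peaks of the lists shared 1 bp.

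In WT 1 the widest after the ribosomal copy lay in Lef1 (1576 bp), at Slc1a4, in Ets1 (1532 bp), at Rftn1 (1492 bp), in Nrip1 (1464 bp), in Nfatc2 (1402 bp) and near Dusp4 (1354 bp). Lef1 and Ets1 are T cell transcription factors, Nfatc2 carries the calcium signal of the T cell receptor, Nrip1 is a corepressor and Dusp4 a phosphatase of MAP kinases. The Lef1 peak lay 0.460 kb from a WT 2 peak and the Ets1 peak 0.671 kb, while the Nrip1 peak lay 17.4 kb from one. In WT 2 the widest lay in Sp100 (1456 bp), 8.79 kb from Slc4a8 (1186 bp), at Nefh and Ap1b1 (1052 bp) and in Cyth1 (986 bp). Sp100 is a nuclear body protein, and its peak was 9.23 kb from any WT 1 peak. The distance to a WT 1 peak was 0.354 kb for the peak near Slc4a8, 30.4 kb at Nefh and Ap1b1 and 0.059 kb in Cyth1.

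Genes were scanned with a territory of the gene body and 10 kb on both sides. Of 21779 coding genes, 6144 (28.2%) held a WT 1 member, 2707 (12.4%) a WT 2 member and 1433 (6.58%) both. A region called in both WT lists was in 9747 (44.8%). WT 1 members with no peak of WT 2 or KO stood alone in 1574 genes (7.23%), and WT 2 members in 503 (2.31%). Most genes held one member, 63.6% of the WT 1 and 84.6% of the WT 2 genes. Among genes with no region called in both, 15.8% held a WT 1 member and 6.90% a WT 2 member, and among those with 10 or more, 100% and 78.7%. Median gene length rose over these classes from 12.4 kb to 186 kb, so gene length was not separated from peak number here.

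Genes with most WT 1 members were Foxp1 with 29, Bach2 with 21, Lpp with 18, Nsmce2 with 17, Prkch with 15 and Maml2 with 14. Foxp1 and Bach2, transcription factors that hold T cells in a resting state, had 73 and 58 WT 1 peaks in all, so 39.7% and 36.2% of them were single-library, near the 38.4% of the list. The Foxp1 members were 240 to 600 bp wide, all inside the gene, and 0.132 to 14.4 kb from a region called in both. Nsmce2, a SUMO ligase of the SMC5/6 complex, had 68.0% of its 25 peaks called alone. The WT 2 genes with most members were Bach2 and Inpp4b with 6 each, and Tox, Cd247, Ikzf1 and Mgat4a with 5 each. Cd247, the zeta chain of the T cell receptor, and Mgat4a, a glycosyltransferase, also held 5 WT 1 members each. In Mgat4a these lay among the WT 2 members, while in Cd247 1 of the 5 did. In Cd247 a WT 1 peak of 652 bp (chr1:165789790-165790441) lay 0.431 kb from a WT 2 peak of 366 bp, and at the start of Mgat4a peaks of 240 and 242 bp lay 0.542 kb apart.

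Genes with members of 1 library and nothing else were led in WT 1 by Batf3, an AP-1 factor, with 6 members 240 to 452 bp wide, 34.1 to 55.6 kb from any WT 2 peak. Hip1r and Ralgds had 5, and Trmt11, Arap1 and Ehbp1l1 had 4. In WT 2 they were Tada2b and Nucb2 with 3, and Fbxl5, Zfp78, Mrps36 and Grpel1 with 2. Tada2b, a subunit of histone acetyltransferase complexes, had members of 424, 336 and 242 bp in its territory. The 424 bp peak lay 8.45 kb outside the gene, and the 424 and 336 bp peaks are also those counted for its neighbour Grpel1.

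Gene lists were counted by genes with a member in their territory and are read against 28.2% and 12.4% of all coding genes. The lists were drawn up with earlier results of these data known. T cell identity genes came highest, with 19 of 19 holding a WT 1 member and 10 of 19 a WT 2 member. All 19 also held a region called in both. Of the 232 WT 1 peaks in these territories 39.7% were single-library, and of the 174 WT 2 peaks 14.9%. Lef1 held 11 and 4, Bcl11b 11 and 4, and Satb1 8 and 4, of WT 1 and WT 2 in each case. Th1 genes had WT 1 members at 12 of 13 and WT 2 members at 3 of 13, with 56.6% of 53 WT 1 peaks and 11.5% of 26 WT 2 peaks called alone, beside 38.4% and 14.2% of all peaks. In the 6 other lists of T cell programmes and pathways, 27.1% (regulatory T cell) to 37.8% (Th2) of WT 1 peaks and 7.87% (activation) to 16.1% (Th2) of WT 2 peaks were called alone. Tbx21, the Th1 master factor, held 4 WT 1 members of 240, 450, 410 and 240 bp and no region called in both. The 410 bp member (chr11:97114403-97114812) was centred 724 bp past the Tbx21 start site, and the nearest WT 2 peaks to the 4 members were 6.84 to 16.5 kb away. Stat4, which relays IL-12 signals, held 8 WT 1 members and no WT 2 member.

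**Figure D5:**
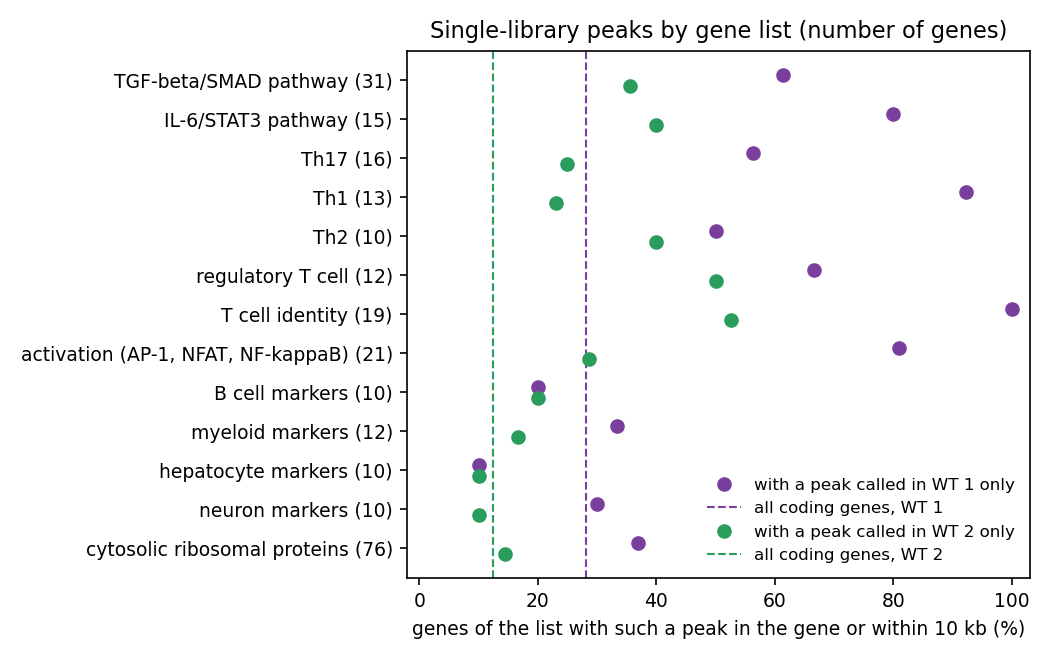
Percent of genes in each list with a peak called in WT 1 only (purple) or WT 2 only (green) in the gene or within 10 kb; dashed lines are the same share over all coding genes, 28.2% and 12.4%, and the number of genes stands beside each list. T cell identity lies at 100% for WT 1, and hepatocyte markers at 1 of 10 genes for both.

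In the TGF-β and SMAD list, 19 of 31 genes held a WT 1 member and 11 of 31 a WT 2 member. The receptor gene Tgfbr2 held 9 and 2, and Smad3, which carries the receptor's signal, 8 and 0. The inhibitory Smad7 held 4 and 1. The corepressors Ski and Skil held 1 of each library, and the Smad4 gene itself 2 WT 1 members. Ltbp3 and Tgfb3 had WT 1 members only, of 240 bp each. The Tgfb3 member lay 9.09 kb outside the gene, and 1 of the 2 Ltbp3 members lay 9.28 kb outside it, near the start of Znrd2. Acvr1 and Acvr2b, type I and type II receptors, had WT 2 members only, and both of those lay at the start site of a neighbouring gene (Upp2 and Exog). The Acvr1 member was also only 0.447 kb outside Acvr1 itself, and the Acvr2b member was 2.71 kb outside Acvr2b.

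At several of these genes, members of the 2 libraries lay side by side. In Tgfbr2 a WT 1 peak of 386 bp (chr9:116114193-116114578) and a WT 2 peak of 242 bp (chr9:116114581-116114822) were 0.003 kb apart, and 8.44 kb and 8.20 kb from the nearest region called in both. In Smad7 a WT 1 peak of 422 bp and a WT 2 peak of 756 bp were 0.004 kb apart. Each such pair counts once in each library. Outside Skil, a WT 1 peak of 240 bp and a WT 2 peak of 356 bp were 1.10 kb apart. The WT 1 member in Ski lay 6.51 kb from the other list and the WT 2 member 0.596 kb. In Smad3 the 8 WT 1 members were 306 to 514 bp wide and lay 1.22 to 28.3 kb from a region called in both.

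For IL-6 and STAT3, 12 of 15 genes held a WT 1 member and 6 of 15 a WT 2 member, with 4 and 3 at the receptor gene Il6ra. Th17 genes gave 9 and 4 of 16. Ccr6, a Th17 chemokine receptor, held 3 WT 1 members of 432, 302 and 394 bp, 40.2 to 47.9 kb from a WT 2 peak, and Il17a and Il17f held no member. Regulatory T cell genes gave 8 and 6 of 12, where Lrrc32, which anchors latent TGF-β, had a WT 2 member only. Th2 genes gave 5 and 4 of 10, and Il4 a WT 1 member only (370 bp). Activation genes of the AP-1, NFAT and NF-κB families gave 17 and 6 of 21.

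Marker lists of other cells and the ribosomal list gave lower shares than each of the 8 lists above, in both libraries, and lay nearer the 28.2% and 12.4% of all coding genes. The share of peaks called alone did not follow this order: it was 55.6% of 9 WT 1 peaks and 33.3% of 6 WT 2 peaks at myeloid markers, and 26.9% of 134 and 10.2% of 108 at ribosomal protein genes. B cell markers gave 2 and 2 of 10, myeloid markers 4 and 2 of 12, hepatocyte markers 1 and 1 of 10, neuron markers 3 and 1 of 10, and cytosolic ribosomal protein genes 28 and 11 of 76. Gene length differed between the lists, with medians from 3.17 kb (ribosomal) to 64.7 kb (neuron). Its part in the share of genes with a member was not tested. Myeloid markers Cd14 and Spi1 held WT 1 members only. The Cd14 member lay 8.1 kb outside that gene, at an end of another coding gene, and the Spi1 members lay inside Spi1. The hepatocyte gene Fgb held a member that lay at the start of its neighbour Plrg1. A region called in both WT lists was present at 5 of 10 B cell and 3 of 12 myeloid markers. Such regions were present at 0 of 10 hepatocyte and 5 of 10 neuron markers and at 60 of 76 ribosomal protein genes. The shares beside these were 19 of 19 T cell identity genes and 44.8% of all coding genes.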

How the data were processed

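For every ChIP library the authors deposited called peaks as chromosome, start and end, without height, score or p-value. Trim Galore, Bowtie, HOMER 4.8.3 and the build mm10 are named, without roles, per the submitters' processing notes. Thresholds, use of input and read depth are not stated in the sources. Peaks were called per sample, so replicates were not pooled. Positions were made 1-based. Overlap meant at least 1 bp, and regions called in both WT lists are merged runs of meeting peaks that hold a peak of each list. Gene bounds came from RefSeq on GRCm38.p6 (21779 coding genes; a start under 3 Mb, except on Y, led to exclusion, since the table gives scaffold coordinates there), and start sites and promoter windows from RefSeq tables that cover 17469 coding genes and no chromosome 18. Exons, introns and UTRs were not used here. The overlap and distance functions were tested on simulated data.

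The peaks, gene lists and tests were chosen with earlier results of these data known. Named genes were, per library, the 8 widest members, the 6 genes with most members, the 6 with members of 1 library only, up to 3 genes of each list, the peaks nearest the rule's edge, and Tbx21, Ccr6, Smad4, Ski, Skil, Il17a and Il17f. Promoter sequences were those of the 3 widest members per library that hold a whole window. List genes with peaks of 1 library only, the peaks at the top of each list, and the ribosomal copy were named after their values were seen. Without replicates of a library no test was made, and intervals are exact 95% Clopper-Pearson. Python 3.11.15, numpy 2.4.6, pandas 2.3.3, SciPy 1.17.1 and matplotlib 3.10.9 were used.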

Additional observations from a re-analysis of the deposited data

How the results depend on the processing

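Leaving out a WT list was not run, since the rule needs both. The 10 values tried changed little with autosomes alone, no exclusion by KO peaks, or KO replicate 1 or 2 left out. They also changed little with a gap of up to 100 bp counted as overlap, which gave 10270 WT 1 and 2662 WT 2 members. Assignment to the nearest gene within 100 kb gave 5282 genes for WT 1 and 2189 for WT 2, against 6144 and 2707 by territory. No paired analysis was possible because each value comes from 1 library and no test was made. The regions called in both WT lists were kept as built from the full lists under the unchanged rule. A peak that became a member under a changed rule could thus be part of such a region, which makes its distance 0. Other causes of the shifts below were not tested. Values are given for WT 1 and WT 2 in that order unless 1 library is named: bp are median widths of members, percentages their shares at gene ends, kb their median distances to regions called in both lists, and genes those with a member in their territory. The unchanged rule gave 10412 and 2807 members, 304 and 242 bp, 16.9% and 26.1%, 9.93 and 10.6 kb, and 6144 and 2707 genes.

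With WT 1 shortened to the length of WT 2 (chosen after seeing the data), members numbered 4690 and 4352, with 406 and 242 bp and 21.4% and 23.1%. The distances were then 9.71 and 1.81 kb, and the genes numbered 3639 and 3718. The first 50% of each list by row order (chosen after seeing the data) gave 4489 and 805 members, 562 and 542 bp, 25.2% and 48.9%, 0 and 0 kb, and 3589 and 1104 genes. Requiring 50% overlap of both peaks gave 13151 and 5827 members, 322 and 306 bp, 20.4% and 30.2%, 5.09 and 0 kb, and 7280 and 4556 genes. Centres within 100 bp gave 14494 and 7179 members, 364 and 370 bp, 23.7% and 35.0%, 3.55 and 0 kb, and 7960 and 5571 genes. Peaks wider than the smallest width gave 6259 and 1233 members and 372 and 358 bp, and in WT 2 a gene end share of 31.6% and 1342 genes. Counting peaks within 1 kb as overlapping gave 8847 and 2058 members, 304 and 242 bp, 15.8% and 25.8%, 13.5 and 17.1 kb, and 5445 and 2098 genes. All RefSeq genes gave gene end shares of 22.3% and 31.8%, a gene end of 5 kb gave 35.2% and 46.5%, and the gene body alone gave 3996 and 1651 genes.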
